A study of Mus musculus with 6 samples.

Results

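Collagens and laminins are the chains from which cells build the extracellular matrix. The members are protein-coding genes named as collagen alpha chains or as laminin alpha, beta or gamma chains in the mouse annotation GENCODE M21, taken by symbol alone. Described here are 43 of the 28418 genes in the deposited tables, 33 collagens and 10 laminins. A further 11 annotated collagens have no entry there and were not analysed here. They were measured by poly(A) RNA sequencing in 4T1, a mouse mammary carcinoma line of epithelial origin widely used to study metastasis. There were 3 libraries of cells kept in 100 nM PFOS (perfluorooctane sulfonate, a long-lived fluorinated surfactant) and 3 of cells kept in 0 nM PFOS. Both groups are 4T1 cells cultured for 35 passages, and the labels give no other agent, genotype or clone. The series asks how prolonged exposure to PFOS changes gene expression in these cells. Whether replicates were grown apart is not given in the labels. The p-values below therefore take in just the variation among these libraries, which may be technical.

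A collagen is a triple helix of 3 alpha chains. Fibril-forming collagens such as types I, III and V make the fibres of connective tissue, and type IV collagen makes the sheet-like network of the basement membrane, the thin layer on which epithelium rests. Laminins are cross-shaped trimers of 1 alpha, 1 beta and 1 gamma chain that bind cell-surface integrins and anchor the cell to that layer. In mammary and skin epithelium the laminin that carries the α3 and β3 chains joins the hemidesmosome, the junction that holds a cell to its base, to anchoring fibrils of type VII collagen.

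Levels are in FPKM (fragments scaled to transcript length and to the mapped total of the library), a per-length scale on which genes can be compared. Over whole libraries the sums were 306735 to 309381 FPKM at 100 nM and 306716 to 308830 FPKM at 0 nM, and read depth is not given. The epithelial markers were Epcam, Cdh1, Krt7, Krt8, Krt18 and Krt19. They summed to 751 to 802 FPKM at 100 nM and 714 to 715 FPKM at 0 nM. Of these 6, 3 were called higher at 100 nM (calls are defined below), against 1.69% of all genes tested. The 9 fibroblast and mural markers summed to 5.26 to 7.70 FPKM at 100 nM and 5.13 to 5.75 FPKM at 0 nM, with Pdgfra the one tested at 3.15 to 3.81 FPKM. Of the 5 endothelial markers the sum stayed at or under 0.51 FPKM in all 6 libraries. Replicate 3 at 100 nM stood apart on the first principal component, with a score of 19.4 against -9.57 to 0.0585 in the other 5. It was the highest library for 10 of 12 leukocyte markers, whose sum was 283 FPKM there. The sums were 129 and 258 FPKM in the other 100 nM libraries and 128 to 167 FPKM at 0 nM. Lyz2 was the largest part of every sum, at 111, 240 and 185 FPKM at 100 nM and 147, 126 and 103 FPKM at 0 nM. It was highest in replicate 2 at 100 nM. Cd14 was at 65.2 FPKM in replicate 3 at 100 nM. Of the 12 leukocyte markers, 6 were over 0.5 FPKM in replicate 3 at 100 nM and under 0.2 FPKM in the other 5 libraries. The T cell gene Cd3d was among these 6, at 1.30 FPKM. In bulk RNA, fewer cells of a type and less RNA per cell cannot be told apart. Differences of the tested members, their sums and most chain ratios are therefore also given without replicate 3 at 100 nM.

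Promoter windows are shown first for genes whose results are described below, since Col7a1, Col5a1 and Lamb3 were called different between the groups and Col4a1 and its neighbour Col4a2 were not. Each runs from 250 bases before to 50 bases after the RefSeq start on GRCm38.p6 and is written 5′ to 3′ on the gene's own strand. Capitals mark GGGCGG (the GC box) and CCAAT (the CCAAT box), each on either strand.
Col7a1, chr9:108953336-108953635, plus strand: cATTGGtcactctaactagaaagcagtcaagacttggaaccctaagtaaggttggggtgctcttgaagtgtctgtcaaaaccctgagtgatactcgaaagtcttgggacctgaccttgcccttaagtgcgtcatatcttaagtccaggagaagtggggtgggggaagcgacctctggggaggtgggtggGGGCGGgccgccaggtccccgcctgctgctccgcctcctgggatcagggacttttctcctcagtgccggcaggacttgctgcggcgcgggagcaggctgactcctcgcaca
Col5a1, chr2:27886175-27886474, plus strand: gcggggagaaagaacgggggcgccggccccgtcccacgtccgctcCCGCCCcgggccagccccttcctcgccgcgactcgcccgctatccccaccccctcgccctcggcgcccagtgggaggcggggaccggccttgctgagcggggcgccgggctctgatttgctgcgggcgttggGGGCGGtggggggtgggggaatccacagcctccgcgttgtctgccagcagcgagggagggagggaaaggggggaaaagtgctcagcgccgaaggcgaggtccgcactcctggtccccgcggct
Lamb3, chr1:193301744-193302043, plus strand: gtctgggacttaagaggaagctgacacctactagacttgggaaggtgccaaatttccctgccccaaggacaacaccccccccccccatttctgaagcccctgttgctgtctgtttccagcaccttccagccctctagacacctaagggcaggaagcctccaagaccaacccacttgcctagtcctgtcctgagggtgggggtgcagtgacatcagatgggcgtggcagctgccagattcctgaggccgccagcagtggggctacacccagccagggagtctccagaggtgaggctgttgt
Col4a1, chr8:11312777-11313076, minus strand: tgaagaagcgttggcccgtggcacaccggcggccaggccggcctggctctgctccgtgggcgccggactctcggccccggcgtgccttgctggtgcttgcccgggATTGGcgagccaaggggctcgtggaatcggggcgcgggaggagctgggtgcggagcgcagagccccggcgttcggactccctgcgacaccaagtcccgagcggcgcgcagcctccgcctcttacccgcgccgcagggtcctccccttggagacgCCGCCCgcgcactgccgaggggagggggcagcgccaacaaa

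The Col7a1 window held 1 GC box and 1 CCAAT box, that of Col5a1 held 2 GC boxes, that of Lamb3 (the first of its 2 RefSeq windows) neither, and that of Col4a1 1 of each. Both Lamb3 windows lie inside the gene as deposited, which starts at 193207699, so the sequence before that start is not shown. Col4a1 and Col4a2 are read in opposite directions from starts 21 bases apart, and their windows share 78 bases. RefSeq windows were read for 30 of the 43 members, with chromosome 18, which holds Lama3, left out. Lamc1 and Col1a1, which also averaged 1 FPKM or more, had no window to read. A member with more than 1 window counts once, if any of its windows holds the letters. Among the 13 members with a window that averaged 1 FPKM or more, 10 held GGGCGG, 7 CCAAT, 1 TGANTCA (the AP-1 motif, in Col6a1) and 0 TATAAA. For the 17 under 1 FPKM the counts were 11, 4, 0 and 3. Of all 32851 windows in the table, 35.7% held GGGCGG, 37.4% CCAAT, 7.81% TGANTCA and 13.6% TATAAA on either strand. These are matches of letters and were not tested as sites.

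By level, 4T1 cells expressed few of the collagens and a small set of laminins. Averaged across the 6 libraries, 10 of 33 collagens and 6 of 10 laminins reached 1 FPKM, and these 16 genes were tested. Just inside that limit lay Col1a1 at 1.40 FPKM and Lama3 at 1.29 FPKM, and just outside it Col1a2 at 0.722 FPKM and Col4a3 at 0.548 FPKM. Col4a1 and Col4a2, the basement membrane chains, made up 61.2% of the summed collagen FPKM. Lamb1, Lama5 and Lamc1 made up 91.7% of the sum over the 10 laminins. By rank of mean FPKM among the 11741 tested genes, Col4a1 stood at 409, Col4a2 at 538, Lamb1 at 558 and Lama3 at 11244.

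**Figure D1:**
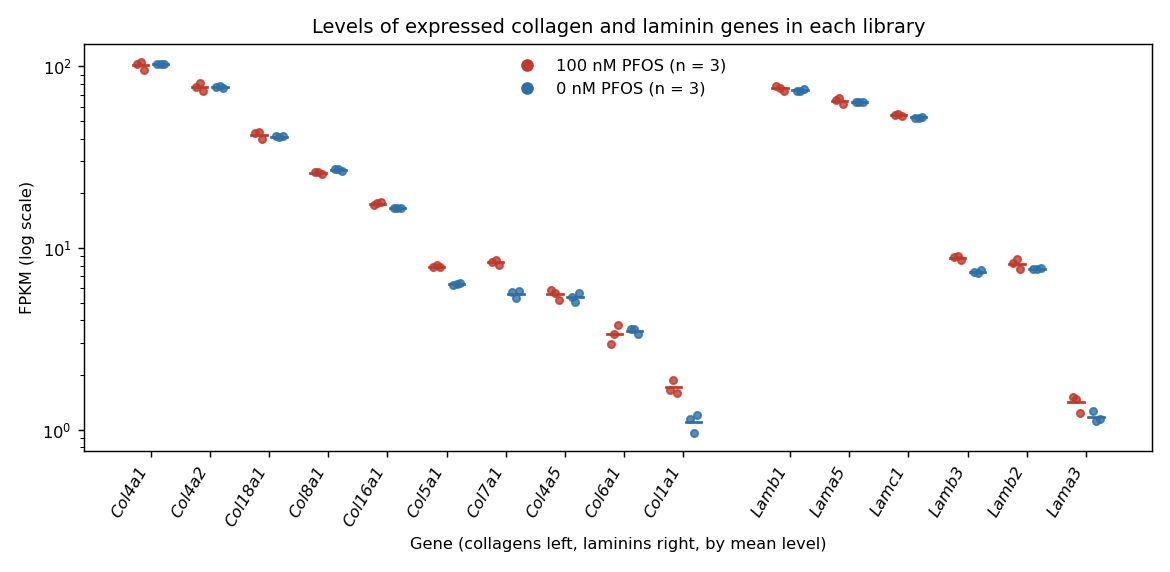
FPKM on a log scale of the 16 tested collagen and laminin genes, each point 1 library and each bar a group mean (n = 3 per group, 100 nM PFOS left and 0 nM PFOS right of each pair). Col4a1 is highest at about 102 FPKM over all libraries and Lama3 lowest at 1.29 FPKM. The groups do not overlap for Col5a1, Col7a1, Col1a1, Lamb3, Lamc1, Col16a1 and Col8a1, as for 26.9% of all genes tested.

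Between the groups, 3 of the 16 tested members were called higher at 100 nM PFOS and none was called lower. They were Col7a1, Col5a1 and Lamb3. A call is a Benjamini-Hochberg adjusted p under 0.05 over all 11741 genes in limma's test on log2(FPKM + 1), a scale that understates the change of low genes. The same test called 1.69% of all genes higher, 2.46% lower and 4.15% in either direction. Without replicate 3 at 100 nM the count was 2 collagens and 1 laminin, as with it. Taken apart, 2 of 10 collagens rose, with a median difference of 0.04 over the 10, and 1 of 6 laminins rose, with a median difference of 0.06 over the 6. The laminin median was 0.09 without replicate 3 at 100 nM, 0.10 without replicate 3 of both groups and 0.03 with no filter on level. The median over all genes tested was 0.01. At an unadjusted p under 0.05 there were 4 collagens and 1 laminin, where 20.7% of all genes passed. The collagen median came to 0.07 with replicate 3 of the 100 nM group left out, and to 0.02 with replicate 1 or 2 of that group, or replicate 2 of the 0 nM group, left out. For 7 of the 16 every library of one group lay beyond every library of the other, against 26.9% of all genes tested. Of these, 6 were higher at 100 nM, against 13.7% of all genes, and Col8a1 was lower.

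**Figure D2:**
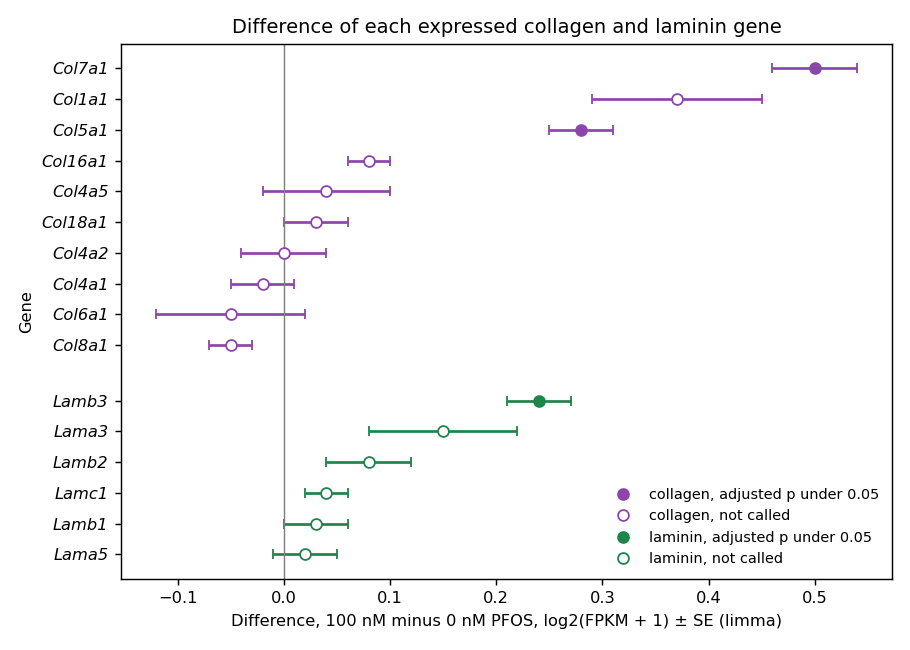
Difference of each tested collagen and laminin gene, 100 nM minus 0 nM PFOS, on the log2(FPKM + 1) scale with its limma standard error; filled points have an adjusted p under 0.05. Col7a1 lies farthest to the right at 0.50, Col5a1 and Lamb3 are the other filled points, and the basement membrane chains Col4a1 and Col4a2 lie at -0.02 and 0.00.

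Type VII collagen had the largest difference of the 16 tested members on the log2(FPKM + 1) scale. With 0.1 FPKM added in place of 1, Col1a1 was ahead of it, at 0.59 against 0.57. Col7a1 (ENSMUSG00000025650, GRCm38 chromosome 9, 108953586 to 108984875, plus strand) encodes the only chain of the anchoring fibril. It had 8.38, 8.60 and 8.08 FPKM at 100 nM PFOS, against 5.70, 5.28 and 5.82 FPKM at 0 nM PFOS. Every 100 nM library lay above every 0 nM library. The means were 8.35 ± 0.261 FPKM at 100 nM and 5.60 ± 0.284 FPKM at 0 nM (SD, n = 3 each), a ratio of 1.49. As a log2(FPKM + 1) difference this was 0.50 ± 0.04 (SE; limma adjusted p = 0.00387). Without replicate 3 at 100 nM it was 0.52, with a limma adjusted p of 0.0121. The call was kept when any 1 of the 6 libraries was left out. Of 77 tested protein-coding genes centred within 2.5 Mb of Col7a1, 68 had a positive difference and 5 were called higher. Of all genes tested, 52.6% had a positive difference and 1.69% were called higher. Their median difference was 0.07, and the part of this neighbourhood in the value of Col7a1 was not tested.

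Type V collagen is a minor fibril-forming collagen that starts fibrils and limits their diameter. Its α1 chain gene Col5a1 (ENSMUSG00000026837, chromosome 2, 27886425 to 28039514, plus strand) had 7.84, 8.02 and 7.81 FPKM at 100 nM, against 6.24, 6.33 and 6.44 FPKM at 0 nM. The groups were tight and did not overlap. It averaged 7.89 ± 0.114 FPKM at 100 nM and 6.34 ± 0.10 FPKM at 0 nM (SD, n = 3 each), and the difference was 0.28 ± 0.03 (SE; limma adjusted p = 0.00731). Without replicate 3 at 100 nM the limma adjusted p was 0.0221, and it was 0.0691 with replicate 3 of both groups left out, which ends the call. The 70 neighbours within 2.5 Mb had a median difference of 0.02, with 0 called. Its partner chain in the common trimer, Col5a2, was far lower, at 0.51, 0.49 and 0.23 FPKM at 100 nM and 0.41, 0.40 and 0.56 FPKM at 0 nM. Col5a3, the third chain, did not exceed 0.20 FPKM in any library. The ratio of Col5a1 to Col5a2 was 15.4, 16.4 and 34.0 at 100 nM and 15.2, 15.8 and 11.5 at 0 nM, and the groups overlapped. The mean ratio was 54.4% higher at 100 nM, but 11.9% higher without replicate 3 of that group.

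Of the laminin α3 and β3 chain genes, Lamb3 was called higher at 100 nM and Lama3 was not called. Lamb3, the β3 chain gene (ENSMUSG00000026639, chromosome 1, 193207699 to 193343878, plus strand), had 8.96, 9.06 and 8.56 FPKM at 100 nM, against 7.34, 7.24 and 7.53 FPKM at 0 nM. The groups did not overlap, and replicate 3 was the lowest of the 100 nM libraries. Lamb3 averaged 8.86 ± 0.265 FPKM at 100 nM and 7.37 ± 0.147 FPKM at 0 nM (SD, n = 3 each), so the 100 nM mean was 20.2% higher. The log2 difference was 0.24 ± 0.03 (SE; limma adjusted p = 0.0186). Lama3, the α3 chain gene on chromosome 18, had 1.51, 1.48 and 1.24 FPKM at 100 nM, against 1.27, 1.12 and 1.14 FPKM at 0 nM. Its groups overlapped by 1 library, and its difference of 0.15 ± 0.07 (SE) was not called (limma adjusted p = 0.323). It was 0.20 without replicate 3 at 100 nM (limma adjusted p = 0.207).

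The Lamb3 difference stayed between 0.22 and 0.26 whichever library was left out. Without replicate 3 at 100 nM the call held, with a limma adjusted p of 0.0274. With any 1 of the other 5 libraries left out, or replicate 3 of both groups, the limma adjusted p was 0.0613 to 0.0812, above the threshold. Calls over all genes also fell then, to between 91 and 183, against 487 with all libraries. Of its 21 neighbours within 2.5 Mb, 7 had a positive difference and 0 were called.

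The laminin α5β1γ1 chains, the main laminin of mature epithelial basement membranes, had no gene called. Lama5, the α5 chain gene, had 65.7, 66.8 and 61.9 FPKM at 100 nM, against 63.8, 63.7 and 63.9 FPKM at 0 nM. Lamb1, the β1 chain gene, had 77.5, 76.4 and 73.0 FPKM at 100 nM, against 73.5, 73.2 and 75.1 FPKM at 0 nM. Lamc1, the γ1 chain gene, had 54.0, 54.4 and 53.3 FPKM at 100 nM, against 52.3, 52.3 and 52.9 FPKM at 0 nM. The groups overlapped for Lama5 and Lamb1 but not for Lamc1. The differences were 0.02, 0.03 and 0.04, with limma adjusted p of 0.752, 0.566 and 0.325. They were 0.05, 0.06 and 0.05 without replicate 3 at 100 nM, again with no call (limma adjusted p = 0.228, 0.241 and 0.293). Lamb2, the β2 chain gene, averaged 8.21 ± 0.484 FPKM at 100 nM and 7.68 ± 0.07 FPKM at 0 nM (SD, n = 3 each), with no call (limma adjusted p = 0.337). Its difference was 0.08, and 0.12 without replicate 3 at 100 nM (limma adjusted p = 0.144). Lamb2 is also among the 77 neighbours of Col7a1 on chromosome 9, whose median difference was 0.07.

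**Figure D3:**
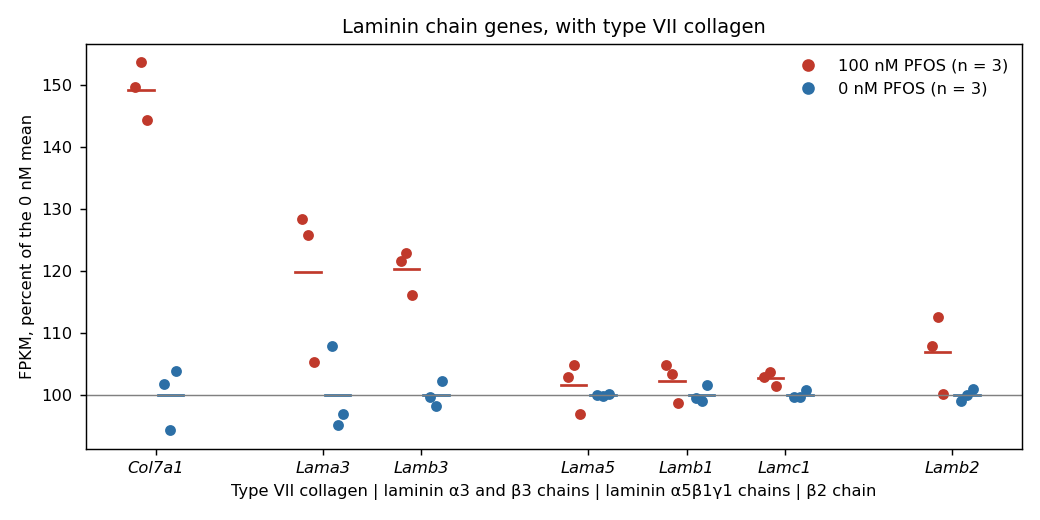
FPKM as percent of the 0 nM mean for Col7a1 and for the laminin chain genes grouped by the chains they encode, each point 1 library and each bar a group mean (n = 3; 100 nM PFOS left, 0 nM PFOS right). The α3 and β3 chain genes have 100 nM means 19.8% and 20.2% above the 0 nM mean. The α3 chain gene Lama3 is not called and its groups overlap. The 100 nM means of the α5, β1 and γ1 chain genes are 1.57% to 2.73% above the 0 nM mean, and that of the β2 chain gene 6.86%.

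Chain ratios within a library do not depend on its scaling. The ratio of Lamb3 to Lamb1, the alternative β chains, was 0.116, 0.119 and 0.117 at 100 nM, against 0.0999, 0.0989 and 0.1 at 0 nM. For Lama3 to Lama5, the alternative α chains, it was 0.023, 0.0221 and 0.02 at 100 nM, against 0.0199, 0.0176 and 0.0179 at 0 nM. Both ratios were higher in every 100 nM library than in any 0 nM library. For the α chains the closest values were 0.02 (replicate 3 at 100 nM) and 0.0199 (replicate 1 at 0 nM). That gap is within the rounding of Lama3, written to 2 decimals. An exact two-sided permutation test of 3 against 3 libraries cannot go below p = 0.10, so that test cannot reach 0.05 here, and no other was run on the ratios. The Lamb3 to Lamb1 ratio averaged 0.117 ± 0.00153 at 100 nM and 0.0997 ± 0.000693 at 0 nM (SD, n = 3 each). The Lamb1 mean was 2.29% higher at 100 nM, so this gap largely restates the Lamb3 difference given above. That ratio was 17.5% higher at 100 nM with or without replicate 3 of that group. The α chain ratio was 17.8% higher with it and 22.3% higher without it. The Lamb3 to Lamb1 ratio and the ratios that follow were added with the values in view. Lamb2, a further β chain, to Lamb1 stood at 0.107, 0.113 and 0.105 at 100 nM, against 0.104, 0.105 and 0.103 at 0 nM. Col1a1 to Col1a2 stood at 2.1, 1.93 and 2.45 at 100 nM, against 1.54, 1.81 and 1.85 at 0 nM. Neither pair of groups overlapped, though the closest Lamb2 to Lamb1 values were both 0.105 as rounded. Col1a2 was under 1 FPKM in every library. Lamb3 stood at 5.93 to 6.90 times the level of Lama3 at 100 nM and 5.78 to 6.61 times at 0 nM, and these ranges overlapped.

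The basement membrane collagens showed no call. Col4a1 had 103, 105 and 96.1 FPKM at 100 nM, against 103, 103 and 102 FPKM at 0 nM, and Col4a2 had 77.5, 80.9 and 73.0 FPKM at 100 nM, against 76.5, 78.2 and 76.2 FPKM at 0 nM. The 100 nM libraries lay on both sides of the 0 nM ones for both genes. The limma adjusted p was 0.79 for Col4a1 and 0.989 for Col4a2. Their ratio, Col4a2 to Col4a1, was 0.753, 0.77 and 0.76 at 100 nM and 0.744, 0.761 and 0.744 at 0 nM, so the Col4a1 transcript level was the higher in every library. Leaving out replicate 3 at 100 nM gave differences of 0.02 for Col4a1 and 0.04 for Col4a2, against -0.02 and 0.00 with it, and the ratio was 1.59% higher at 100 nM, against 1.52% with it. Col18a1, which encodes type XVIII collagen, the precursor of endostatin, averaged 42.0 ± 1.93 FPKM at 100 nM and 41.0 ± 0.246 FPKM at 0 nM (SD, n = 3 each; limma adjusted p = 0.659). Col4a5, a chain of other type IV trimers, averaged 5.54 ± 0.362 FPKM at 100 nM and 5.36 ± 0.281 FPKM at 0 nM (SD, n = 3 each; limma adjusted p = 0.739). The differences of Col18a1 and Col4a5 were 0.03 and 0.04, and 0.07 and 0.08 without replicate 3 at 100 nM, with no call (limma adjusted p = 0.163 and 0.429). Replicate 3 at 100 nM was the lowest of all 6 libraries for Col4a1, Col4a2, Col18a1, Col8a1, Lama5 and Lamb1.

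Of the other expressed collagens, none passed the test. Col1a1, the main fibril-forming chain, had 1.66, 1.87 and 1.59 FPKM at 100 nM, against 1.14, 0.96 and 1.2 FPKM at 0 nM. The groups did not overlap and the ratio of means was 1.55, the highest among the tested members. Its difference of 0.37 ± 0.08 (SE) stood just outside the threshold (limma adjusted p = 0.0515). It was inside with limma's robust moderation (adjusted p = 0.0446) or without the mean trend (adjusted p = 0.0429), and outside at 0.0815 without replicate 3 at 100 nM. Its partner Col1a2 was not tested at 0.79, 0.97 and 0.65 FPKM at 100 nM and 0.74, 0.53 and 0.65 FPKM at 0 nM.

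Col16a1, a collagen that attaches to fibrils and cells, had 17.2, 17.6 and 17.8 FPKM at 100 nM, against 16.5, 16.6 and 16.6 FPKM at 0 nM. Col8a1, a short network-forming collagen, had 26.1, 26.1 and 25.7 FPKM at 100 nM, against 27.3, 27.2 and 26.5 FPKM at 0 nM. Neither pair of groups overlapped, with Col16a1 at the higher and Col8a1 at the lower side for 100 nM. Their limma adjusted p were 0.146 and 0.25. The differences were 0.08 and -0.05, and 0.07 and -0.05 without replicate 3 at 100 nM. Col6a1, a chain of the beaded filaments of type VI collagen, had 2.96, 3.36 and 3.77 FPKM at 100 nM and 3.56, 3.59 and 3.36 FPKM at 0 nM (limma adjusted p = 0.755). Its difference was -0.05, and -0.12 without replicate 3 at 100 nM (limma adjusted p = 0.369). Its partner Col6a2 did not exceed 0.17 FPKM in any library.

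As sums over the 43 members, the collagens came to 297.7, 304.7 and 283.0 FPKM at 100 nM, against 290.0, 290.4 and 289.4 FPKM at 0 nM. The laminins came to 216.0, 216.9 and 205.7 FPKM at 100 nM, against 205.9, 205.3 and 208.3 FPKM at 0 nM. Both sums overlapped between the groups. The laminin mean was 3.09% higher at 100 nM, and 4.84% higher without replicate 3 of that group. The collagen mean was 1.79% higher at 100 nM, 3.88% higher without replicate 3 of that group and 0.135% higher without replicate 2 of it.

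Below a mean of 1 FPKM lay 23 collagens and 4 laminins. Col1a2, Col4a3, Col2a1, Col5a2, Col4a4, Col4a6, Col3a1, Col17a1, Col6a3, Col12a1, Col5a3 and Col11a2 lay between 0.1 and 1 FPKM. The remaining 11 collagens were under 0.1 FPKM. Of these, Col6a2 reached 0.17 FPKM, Col20a1 0.10 FPKM, Col27a1 0.08 FPKM, Col8a2 0.06 FPKM, and Col9a3 and Col14a1 0.05 FPKM in their highest library. Col15a1 reached 0.02 FPKM, Col23a1, Col6a4 and Col6a5 0.01 FPKM, and Col26a1 was listed at 0 in all 6 libraries. Among laminins, Lamc3 reached 0.08 FPKM, Lama1 0.07 FPKM and Lama4 0.03 FPKM, and Lama2, the muscle and nerve α chain, was listed at 0 in all 6. Tested with no filter on level, 25 of these 27 genes could be fitted and 0 were called by limma (0 at an unadjusted p under 0.05; smallest adjusted p = 0.501). Col17a1, the transmembrane collagen of the hemidesmosome, was among them at 0.22, 0.21 and 0.23 FPKM at 100 nM and 0.28, 0.17 and 0.17 FPKM at 0 nM.

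Several low collagens were set apart in replicate 3 at 100 nM alone. Col4a3 was listed at 0 there, against 0.62 and 0.71 FPKM in the other 100 nM libraries and 0.57, 0.65 and 0.74 FPKM at 0 nM. Col4a4, its neighbour on chromosome 1 read in the opposite direction, was at 0.01 FPKM there, against 0.42 and 0.38 FPKM in the other 100 nM libraries and 0.43, 0.43 and 0.49 FPKM at 0 nM. Both encode chains of the type IV collagen of kidney and other specialised basement membranes. In the other direction, Col6a3 was at 0.95 FPKM there and at most 0.01 FPKM in the other 5 libraries, and Col3a1 was at 0.60 FPKM there, against 0.14 and 0.18 FPKM in the other 100 nM libraries and 0.12 to 0.16 FPKM at 0 nM. The fibroblast and mural markers Dcn and Thy1 stood at 2.26 and 1.35 FPKM in that library and at most 0.05 FPKM in the other 5, while Fap, Postn, Pdgfrb and Lum were at or under 0.11 FPKM in all 6. Acta2 and Tagln went the other way, at 0.12 and 0.08 FPKM in that library, against 0.47 to 0.92 FPKM and 0.90 to 1.62 FPKM in the other 5. Pdgfra, the ninth of the list, was at 3.81 FPKM there and 3.15 to 3.76 FPKM in the other 5. Their part in the Col6a3 and Col3a1 values was not tested.

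**Figure D4:**
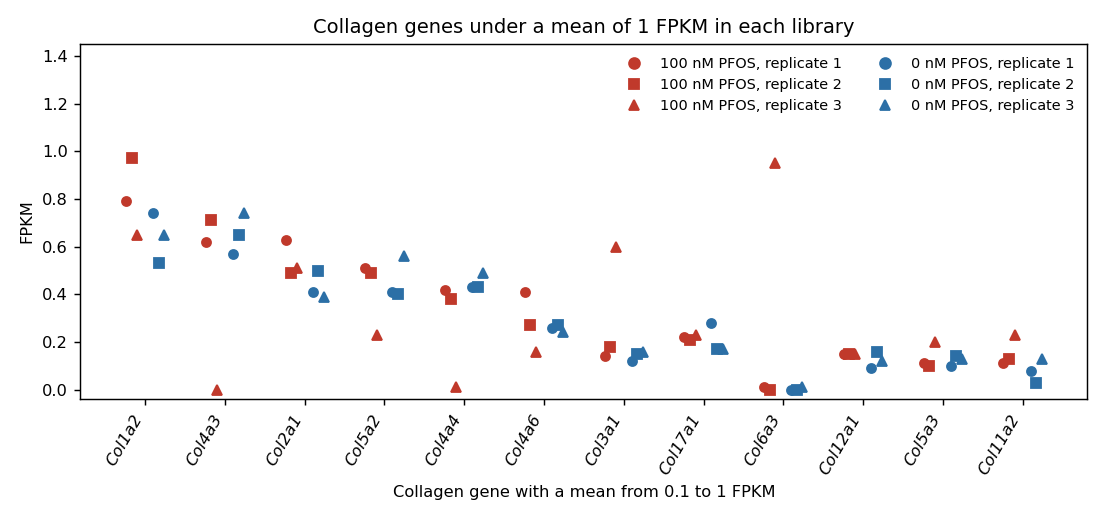
FPKM of the 12 collagen genes with a mean between 0.1 and 1 FPKM, each point 1 library, with the marker shape giving the replicate number (100 nM PFOS left, 0 nM PFOS right). The triangle of 100 nM replicate 3 is at or near 0 for Col4a3 and Col4a4 and stands far above the other 5 libraries for Col6a3 (0.95 FPKM) and Col3a1 (0.60 FPKM).

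Genes that serve these chains were read from 4 lists. Beside each list, 1.69% of all genes tested were called higher and 2.46% lower, with a median difference of 0.01. Of 20 modification and folding genes in the files, 16 were tested, 1 rose and 1 fell, with a median difference of 0.03. P4hb, the β subunit of the prolyl hydroxylase that stabilises the collagen helix, had 276, 273 and 288 FPKM at 100 nM, against 257, 253 and 253 FPKM at 0 nM (limma adjusted p = 0.0349). Serpinh1, the collagen chaperone HSP47, had 152, 153 and 149 FPKM at 100 nM, against 162, 160 and 163 FPKM at 0 nM (limma adjusted p = 0.0422). The groups overlapped for neither gene, nor did they for 26.9% of all genes tested. Without replicate 1 or 2 at 100 nM or any 0 nM replicate the P4hb call was lost (limma adjusted p from 0.0751 to 0.118), and Serpinh1 lost its call without any 1 of the 6 libraries (from 0.0843 to 0.134). Of procollagen processing genes 7 were in the files, 4 were tested, 1 rose and 0 fell, with a median difference of 0.15. It was Bmp1, the procollagen C-proteinase, at 38.7, 40.3 and 38.1 FPKM at 100 nM, against 35.1, 35.3 and 35.1 FPKM at 0 nM (limma adjusted p = 0.0376). That call held without replicate 3 at 100 nM and was lost without any other 1 library (from 0.0935 to 0.118). Pcolce2, an enhancer of that proteinase, averaged 24.4 ± 0.846 FPKM at 100 nM and 21.9 ± 0.48 FPKM at 0 nM (SD, n = 3 each; limma adjusted p = 0.0576).

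Among 16 basement membrane partners 6 were tested, 1 rose and 0 fell, against 1.69% and 2.46% of all genes. The median difference of the 6 was 0.02. Fbln2, fibulin-2, a ligand of laminin and nidogen, had 77.4, 74.5 and 71.9 FPKM at 100 nM, against 64.0, 63.2 and 64.1 FPKM at 0 nM (limma adjusted p = 0.0145). Its call was lost without replicate 2 at 100 nM or any 0 nM replicate (limma adjusted p from 0.0616 to 0.0726). Sparc, a collagen-binding matricellular protein gene, averaged 49.4 ± 2.14 FPKM at 100 nM and 50.2 ± 0.295 FPKM at 0 nM (SD, n = 3 each; limma adjusted p = 0.744). The nidogen genes Nid1 and Nid2, whose products link laminin to type IV collagen, did not exceed 0.51 and 0.20 FPKM in any library.

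Among 16 collagen and laminin receptors 11 were tested, 1 rose and 1 fell, against 1.69% and 2.46% of all genes. The median difference of the 11 was -0.02. Itgb4, the integrin β4 subunit of the hemidesmosome, had 9.89, 10.02 and 9.20 FPKM at 100 nM, against 7.63, 7.28 and 7.82 FPKM at 0 nM (limma adjusted p = 0.015). Itga6, the α6 subunit that pairs with it as a laminin receptor, had 20.9, 19.5 and 19.3 FPKM at 100 nM, against 22.4, 22.7 and 22.9 FPKM at 0 nM (limma adjusted p = 0.0399). These partner subunits thus stood on opposite sides, with no overlap of the groups for either, as for 26.9% of all genes tested. Without replicate 1 or 2 of either group Itgb4 lost its call (limma adjusted p from 0.0618 to 0.0682), and Itga6 lost its own without replicate 2 or 3 at 100 nM or any 0 nM replicate (from 0.0895 to 0.131). Itgb1 and Itga3, the most abundant receptor subunits, averaged 256 ± 7.64 and 234 ± 4.85 FPKM at 100 nM and 256 ± 2.84 and 238 ± 1.58 FPKM at 0 nM (SD, n = 3 each), with no call (limma adjusted p = 0.996 and 0.551).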

How the data were processed

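Poly(A) RNA of 4T1 cells was sequenced in 6 libraries. Strand-marked, paired-end libraries were made, per the labels' protocols. The tools were fastp, HISAT2 and StringTie, per the submitters' processing notes. Their versions and any use of strand in counting are not given in the sources read. The authors deposited FPKM per gene, written to 2 decimals. The notes name GRCh38 and mm10, but the identifiers are mouse and 25640 of 28418 genes have the same coordinates in GENCODE M21 (GRCm38), so coordinates are as deposited.

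Members were taken by symbol; 1 is not reported here and enters no member count, sum or ratio. The members and lists were chosen with earlier results of these data known. Genes averaging 1 FPKM or more were compared by limma 3.58.1 (R 4.3.3, trend, two-sided) after log2(FPKM + 1), as 100 nM minus 0 nM. The script was checked on simulated data. Low values were searched for whole reads, but 30% to 33.4% per library came within 0.1 of a whole multiple, so depth stays unknown. Of 31-base words in the 16 tested members, at most 0.864% (Lamb3) occur in transcripts of other genes. The 16 members with at least 1 FPKM are named, with the called and the 2 highest genes of each list; further names in the text were picked with the values in view. The remaining steps ran in Python 3.11.15 (numpy 2.4.6, pandas 2.3.3, matplotlib 3.10.9).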

Additional observations from a re-analysis of the deposited data

How the results depend on the processing

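Over 17 alternatives, Col7a1 kept its direction (0.47 to 0.57) and Col5a1 too (0.27 to 0.31), as did Lamb3 (0.22 to 0.27). With the replicate number as a block, 0 collagens, 0 laminins and 58 of all genes were called, and 0 genes of each of the 4 lists. Col7a1 then had an adjusted p of 0.0561. Same-numbered libraries did not deviate together (correlations -0.03, -0.05 and 0.01), and no 100 nM library correlated best with its own number. With 3 libraries per group this cannot show whether same-numbered libraries shared a culture or a run, which the labels do not give. Leaving out 1 library gave 2 to 2 collagens, 0 to 1 laminins, 122 to 290 genes in all (487 with all libraries), and 0 to 1 in each list. Without replicate 3 of both groups there were 1 collagen, 0 laminins, 91 genes in all, 1 receptor and 0 in the other lists. Without the mean trend there were 294 genes in all and 1 receptor, with no filter 204 genes in all and 1 receptor, and with TPM 1 receptor. Those 2 first settings gave 0 modification and 0 processing genes, TPM 1 and 0, and quantile normalization 1 modification gene. The collagen median was 0.02 with no filter, 0.07 without replicate 3 of both groups and 0.02 to 0.07 when 1 library was left out. The median of the neighbours of Col5a1 came to 0.02 to 0.03 when 1 library was left out. Uncalled values near 0 changed sign. When 1 library was left out, Col6a1 ran from -0.12 to 0.02, Lama5 from -0.001 to 0.05, Col4a1 from -0.05 to 0.02, Col4a2 from -0.03 to 0.04, Sparc from -0.05 to 0.01 and Itgb1 from -0.02 to 0.02. Without replicate 3 of both groups Col4a1 was 0.02 and Sparc 0.02, and under median scaling Col4a2 was -0.004 and Itgb1 -0.005. The cause was not tested. Precision is known only from replicates, since the files give no depth. Alternatives for the 4 lists and their genes, the neighbours, the chain ratios and the count over all genes were chosen after seeing the data.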
